A study of Mus musculus with 8 samples.

Results

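Genes that copy DNA and genes that divide the chromosomes were compared between GPR35-positive and GPR35-negative cells sorted as macrophages. GPR35 is a G protein-coupled receptor. The set was chosen by symbol and held 96 of the 14980 genes listed in the study's count table. It comprised 47 genes of DNA replication, from the origin recognition complex to nucleotide supply and cyclin E, and 47 genes of mitosis, from cyclins A and B to the kinetochore and the anaphase ubiquitin ligase. The rule also took in 2 genes for the likeness of their symbols alone, Mcm3ap and Aurkaip1, which were kept out of both arms.

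Cells staining for CD64, an Fc gamma receptor of macrophages, and for MHC class II were sorted from the intestinal lamina propria of 4 male mice. Each mouse gave a GPR35-positive and a GPR35-negative population, so 8 libraries formed 2 groups of 4. The groups shared tissue, sex and sort gate and differed in their GPR35 label. No treatment was named, and the sources used here give no strain, age or genotype. RNA was amplified with SMART-Seq v4 and made into libraries with Nextera XT, which mark neither strand nor molecule.

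Total counts ran from 33.8 to 48.6 M in the positive libraries and from 16 to 30.1 M in the negative ones, and all 96 genes passed the filter on low counts. Gpr35 itself was between 56.2 and 91.9 CPM (counts scaled to a library of 1 M) in the positive libraries and between 1.13 and 4.69 CPM in the negative ones. Of 16 macrophage markers, all 16 were higher in the positive libraries (edgeR adjusted p under 0.05), against 18.4% of all genes tested. Their summed level was 41557 to 50153 CPM in the positive and 4318 to 21339 CPM in the negative libraries. Markers of B and plasma cells summed to 1246 to 2704 CPM in the positive and 73868 to 144459 CPM in the negative libraries, so the negative libraries, under the same macrophage label, held high levels of B and plasma cell transcripts. In bulk RNA, a smaller share of dividing cells and less of these transcripts in each cell cannot be told apart.

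Before a cell divides, origins marked by the origin recognition complex are licensed in G1 by CDC6 and CDT1, which load the MCM2-7 helicase. Cyclin E with its kinase, CDC45 and the GINS complex then start the helicase, and polymerases held by the PCNA clamp copy the strands from nucleotides supplied by ribonucleotide reductase, thymidylate synthase and thymidine kinase. In mitosis, cyclins A and B drive CDK1, the kinetochore ties chromosomes to spindle fibres, and CDC20 and UBE2C act with the anaphase-promoting complex to destroy cyclin B and release the chromatids. Genes of the first programme are known targets of E2F factors, while many of the second are known targets of the DREAM and MuvB complexes, which act through a CHR element and neighbouring CCAAT boxes bound by NF-Y. Most macrophages of the healthy gut are replaced from blood monocytes and are thought to divide little once mature.

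The promoters of 6 members are printed because they carry CHR or E2F letters, whose shares differed between the arms. CCAAT letters were frequent in both arms (69.8% of mitosis and 60.5% of replication genes with a promoter). The 6 are Cdc20, Ube2c, Cdk1 and Ccnb2 from mitosis and Mcm6 and Mcm3 from replication. Each run is 250 bases before to 50 after an annotated start, 5′ to 3′ on the gene's own strand, from RefSeq on GRCm38.p6. Capitals mark matches on either strand to TTTGAA (CHR), to CCAAT (NF-Y box) or to TTTGGCGC, TTTCCCGC, TTTGCCGC and TTTCGCGC (E2F). In Ube2c the capitals CCAATTGG hold CCAAT overlapping its own reverse complement, and in Mcm6 TTTGGCGCGAAA holds an E2F match on each strand.
Cdc20, chr4:118437294-118437593, minus strand: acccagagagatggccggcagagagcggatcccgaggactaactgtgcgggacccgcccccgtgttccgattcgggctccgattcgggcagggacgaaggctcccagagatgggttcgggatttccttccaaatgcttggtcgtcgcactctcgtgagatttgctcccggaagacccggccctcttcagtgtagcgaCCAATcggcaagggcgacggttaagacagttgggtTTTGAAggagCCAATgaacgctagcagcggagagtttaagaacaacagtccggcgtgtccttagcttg
Ube2c, chr2:164769679-164769978, plus strand: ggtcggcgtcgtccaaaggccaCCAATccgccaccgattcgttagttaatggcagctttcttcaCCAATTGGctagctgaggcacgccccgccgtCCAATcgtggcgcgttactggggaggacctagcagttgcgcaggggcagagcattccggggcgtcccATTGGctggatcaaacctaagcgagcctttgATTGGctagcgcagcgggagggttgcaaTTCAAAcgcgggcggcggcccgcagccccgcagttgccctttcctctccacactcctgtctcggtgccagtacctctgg
Cdk1, chr10:69352863-69353162, minus strand: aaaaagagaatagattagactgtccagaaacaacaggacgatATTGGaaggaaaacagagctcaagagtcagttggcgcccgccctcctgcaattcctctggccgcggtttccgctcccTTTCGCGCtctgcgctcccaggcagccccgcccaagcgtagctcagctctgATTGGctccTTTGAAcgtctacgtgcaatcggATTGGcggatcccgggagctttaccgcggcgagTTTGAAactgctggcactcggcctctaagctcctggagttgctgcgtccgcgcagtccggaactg
Ccnb2, chr9:70421505-70421804, minus strand: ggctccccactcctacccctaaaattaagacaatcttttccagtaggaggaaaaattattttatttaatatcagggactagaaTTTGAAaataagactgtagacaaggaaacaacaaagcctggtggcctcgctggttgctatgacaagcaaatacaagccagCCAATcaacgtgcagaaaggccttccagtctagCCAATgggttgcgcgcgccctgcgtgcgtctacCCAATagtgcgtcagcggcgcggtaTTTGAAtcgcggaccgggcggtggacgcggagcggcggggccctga
Mcm6, chr1:128359656-128359955, minus strand: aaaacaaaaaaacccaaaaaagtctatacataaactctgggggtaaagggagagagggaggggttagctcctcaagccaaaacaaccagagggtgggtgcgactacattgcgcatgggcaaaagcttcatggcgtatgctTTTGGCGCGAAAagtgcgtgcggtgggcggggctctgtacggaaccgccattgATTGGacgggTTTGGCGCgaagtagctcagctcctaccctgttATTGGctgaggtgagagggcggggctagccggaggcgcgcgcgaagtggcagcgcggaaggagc
Mcm3, chr1:20820263-20820562, minus strand: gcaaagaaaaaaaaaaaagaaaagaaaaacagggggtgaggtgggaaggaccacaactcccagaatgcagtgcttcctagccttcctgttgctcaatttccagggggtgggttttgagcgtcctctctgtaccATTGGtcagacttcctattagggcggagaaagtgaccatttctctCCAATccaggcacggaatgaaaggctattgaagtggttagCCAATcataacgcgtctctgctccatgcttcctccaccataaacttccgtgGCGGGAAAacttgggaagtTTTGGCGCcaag

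The 4 mitosis promoters held 1 or 2 CHR matches and 2 to 6 CCAAT matches each, and that of Cdk1 also held an E2F match. The 2 replication promoters held E2F and CCAAT matches but no CHR match. Over all 11174 tested genes with a promoter in the RefSeq table, 15% held a CHR match, 42.7% a CCAAT match, 6.17% both and 4.56% an E2F match. Of the 96 members, 82 had a promoter there. Among the 43 mitosis genes with one, 22 (51.2%) held CHR, 30 (69.8%) held CCAAT, 19 (44.2%) held both and 6 (14%) held E2F. Among the 38 replication genes with one, 10.5% held CHR, 60.5% CCAAT, 7.89% both and 42.1%, or 16 genes, E2F. The 19 mitosis genes with both letters included Cdc20, Ube2c, Cdk1, Ccnb2, Plk1, Aurka, Kif11 and Top2a, and the replication genes with E2F letters included Cdc6, Cdt1, Mcm3, Mcm5, Mcm6, Mcm7 and Orc1. A match is a description of these letters and not a bound site.

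**Figure D1:**
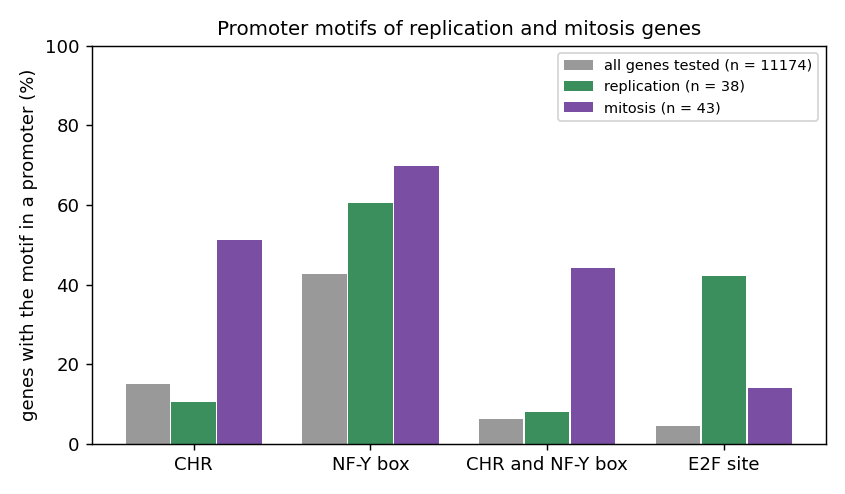
Share of genes (percent, bars from 0) whose RefSeq promoter held the CHR, the NF-Y box, both, or an E2F motif, for all tested genes, the 38 replication genes and the 43 mitosis genes. CHR stood at 51.2% in mitosis against 15% of all genes, and E2F at 42.1% in replication against 4.56%.

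Across the 96 members, 42 fell and 3 rose in GPR35-positive cells at an edgeR adjusted p under 0.05, and the median log2 fold change, positive minus negative, was -0.88. Over all 14193 genes tested, 19.5% fell, 18.4% rose, 38% changed in either direction, and the median was -0.05. In the mitosis arm 27 of 47 genes fell by edgeR (32 by DESeq2 and 24 by limma voom) and 0 rose by any of the 3 (0 also at an unadjusted p under 0.05 in edgeR), with a median of -1.21 and a range from -3.04 to 0.47. In the replication arm 14 of 47 fell and 3 rose, with a median of -0.37 and a range from -2.58 to 0.94. Of the 27 mitosis genes that fell, 22 were at least 2-fold lower, as were 2006 of the 2774 genes that fell overall. The list counts carry no test of their own, and the arms were not tested against each other.

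The medians of both arms were below 0 in each animal. Within animals 1 to 4, the median log2 difference over the mitosis genes was -1.33, -1.73, -0.79 and -1.27, and over the replication genes -0.19, -0.65, -0.44 and -0.35. Over all genes the within-animal medians lay between -0.09 and 0.02. In all 4 animals 34 mitosis genes and 25 replication genes were lower in the positive library, as were 4171 of the 14193 genes tested. The groups did not overlap, with the positive libraries lower, for 26 mitosis and 16 replication genes, against 20.6% of all genes. They did not overlap in the other direction for 3 replication genes, against 21.5% of all genes. Without animal 3 the mitosis genes that fell numbered 17, the replication genes that fell 8 and those that rose 0, while over all 14043 genes then tested 1712 fell and 1569 rose.

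**Figure D2:**
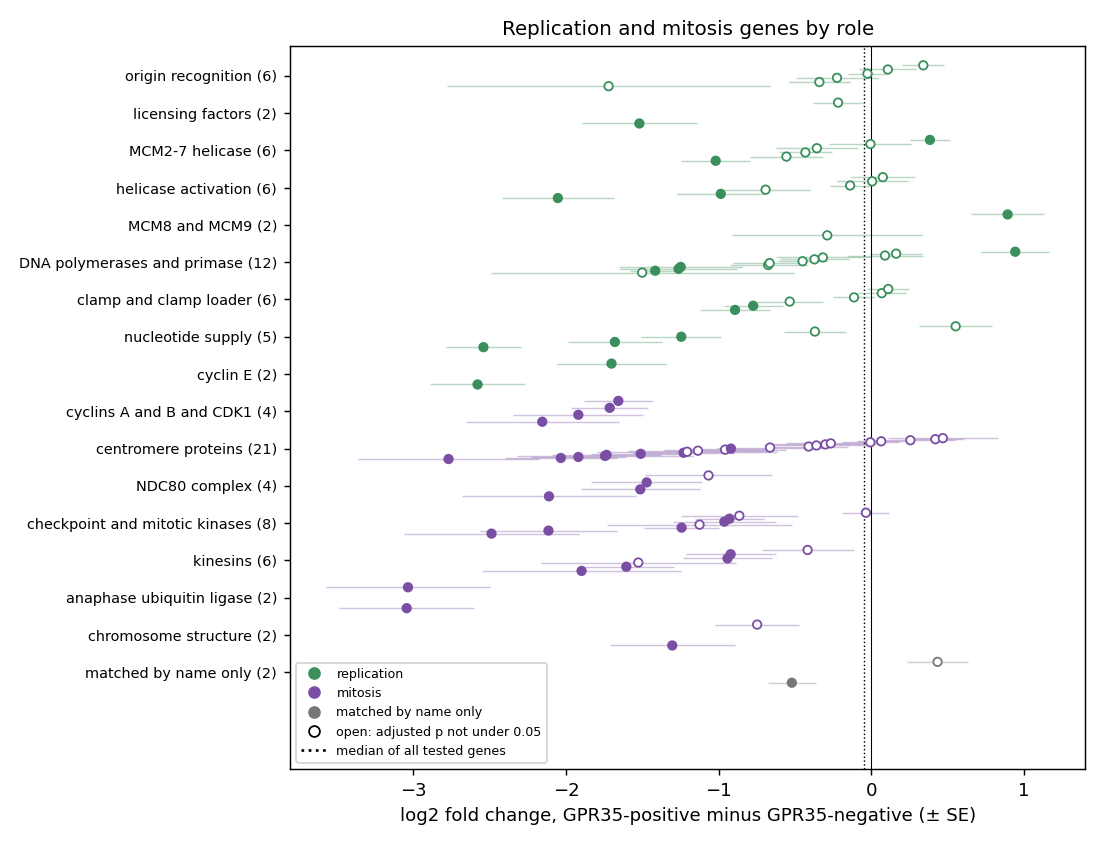
Log2 fold change (x axis, positive minus negative) of each of the 96 members by role, with bars for the SE, filled points for genes past the edgeR threshold and a dotted line at the median of all tested genes, -0.05. Cdc20 and Ube2c lie lowest at -3.04, and the 6 origin recognition genes have open points around a median of -0.13.

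From origin recognition to helicase activation 4 of 20 genes fell and 1 rose, a share near the 19.5% of all genes that fell. Of the 6 origin recognition genes 0 passed by edgeR, DESeq2 or limma voom and 1, Orc3, had an unadjusted edgeR p under 0.05, with a median log2 fold change of -0.13. Orc4 stood at 76.5, 59.0, 57.7 and 66.9 CPM in the positive libraries of animals 1 to 4 and at 62.3, 66.9, 63.2 and 72.2 CPM in the negative ones, and these ranges overlapped. Orc3 was at 62.1 ± 4.20 CPM (SD, n = 4) against 49.1 ± 7.32 CPM, with an edgeR adjusted p of 0.0784. Orc1, the subunit known to be made anew in each cycle, had 0 counts in the positive library of animal 2, which allows up to 0.100 CPM, and 0.723 to 1.87 CPM in the other positive libraries. Its negative libraries lay between 1.90 and 6.08 CPM, and the difference did not pass (edgeR adjusted p = 0.225). Orc1 also shares part of its span with Prpf38a.

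Of the licensing factors, Cdc6, the loader of the helicase, stood at 4.92, 4.12, 6.01 and 9.66 CPM in the positive and 13.5, 11.1, 18.2 and 28.1 CPM in the negative libraries. Every positive library lay below every negative one. Cdc6 fell by 1.52 ± 0.38 on the log2 scale (SE; edgeR adjusted p = 0.013), and without animal 3 the call was lost (adjusted p = 0.0686). Cdt1, its partner, was at 22 ± 2.62 CPM against 25.6 ± 3.74 CPM and did not pass (edgeR adjusted p = 0.315).

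The MCM2-7 subunits, which form a ring of 1 copy each, did not move together. Mcm6 (chromosome 1, 128331575 to 128359705 in GRCm38.p6) stood at 61.8, 70.2, 96.3 and 108 CPM in the positive and 132, 146, 194 and 211 CPM in the negative libraries. The groups did not overlap, and Mcm6 fell by 1.02 ± 0.23 on the log2 scale (SE; edgeR adjusted p = 0.00781). Mcm3, another ring subunit on the same chromosome (20802966 to 20820312), stood at 90.2, 75, 99.3 and 106 CPM in the positive and 71.6, 65.2, 76.4 and 70.6 CPM in the negative libraries. The positive library was higher in each animal, but the groups overlapped, since the positive library of animal 2 lay below the negative library of animal 3. Its log2 fold change of 0.38 ± 0.13 passed narrowly (edgeR adjusted p = 0.0465). That call was lost in 14 of 20 alternatives, and scaling by library size alone gave 0.10 (adjusted p = 0.625).

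Mcm2, Mcm5 and Mcm7 did not pass, with log2 fold changes of -0.56 ± 0.24, -0.36 ± 0.27 and -0.43 ± 0.18 (edgeR adjusted p = 0.0938, 0.315 and 0.0795). With the replicate block Mcm2 passed (adjusted p = 0.0386). Mcm4 was level, at 53.7 ± 13.1 CPM against 54.0 ± 16.8 CPM (edgeR adjusted p = 0.987). The E2F and CCAAT letters in the Mcm6 and Mcm3 promoters printed above thus belonged to a gene that fell and to a gene that did not. Of the 13 replication genes that fell and had a promoter, 30.8% held E2F letters, and of the 25 that did not fall 48.0% did.

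Among the factors that start the helicase, Cdc45, the helicase partner that is loaded as origins fire, stood at 4.34, 2.58, 8.01 and 7.0 CPM in the positive and 17.9, 25.8, 19.0 and 28.6 CPM in the negative libraries. All positive libraries lay below all negative ones, and Cdc45 fell by 2.05 ± 0.37 on the log2 scale (SE; edgeR adjusted p = 0.00309). Mcm10, a further firing factor, fell by 0.99 ± 0.28 (edgeR adjusted p = 0.024), a call lost in 9 alternatives, among them the fit with a replicate block (adjusted p = 0.0600). The GINS subunits, which travel with CDC45 in the same complex, did not pass. Gins2, Gins3 and Gins4 had log2 fold changes of 0.07, 0.01 and -0.14, and Gins1 had -0.69 (edgeR adjusted p = 0.0887). Apart from the replicative ring, Mcm9, a helicase of recombination repair, stood at 12.4, 17.2, 16.2 and 16 CPM against 9.44, 7.55, 10.4 and 5.95 CPM. It was higher in every positive library, with a log2 fold change of 0.89 ± 0.24 (edgeR adjusted p = 0.0171). The call was lost with library size scaling (adjusted p = 0.0777), without the positive library of animal 4 (0.0501), and without animal 2 (0.0622), 3 (0.057) or 4 (0.0764). Mcm9 shares 12265 bases with Asf1a, a histone chaperone gene, and reads of the pair cannot be told apart where they overlap.

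The polymerase genes divided by subunit. Pold2, the accessory subunit of polymerase delta (chromosome 11, 5872180 to 5878256), stood at 15.4, 14.3, 18.4 and 15.4 CPM in the positive and 33.2, 41.2, 46.7 and 48.5 CPM in the negative libraries. No positive library reached the negative range, and Pold2 fell by 1.42 ± 0.17 on the log2 scale (SE; edgeR adjusted p = 4.20e-04). Pold4, the smallest subunit of the same enzyme (chromosome 19, 4231893 to 4233634), went the other way, at 49.2, 55.8, 48.7 and 48.2 CPM in the positive and 17.3, 34.7, 21.4 and 31.9 CPM in the negative libraries. The groups did not overlap, and the log2 fold change came to 0.94 ± 0.22 (edgeR adjusted p = 0.0105). Without animal 3 the Pold4 call was lost (adjusted p = 0.0625). The annotated gene Gm45928 shares 1740 bases with Pold4, nearly the whole Pold4 span, so the Pold4 counts are uncertain. The catalytic subunit gene Pold1 (-0.37) and Pold3 (0.16) did not pass.

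Of the other polymerase genes, Prim1, the primase subunit that starts each strand, stood at 5.57 to 14.2 CPM against 12.7 to 33.6 CPM and fell by 1.26 ± 0.38 (edgeR adjusted p = 0.03), a call lost in 8 of 20 alternatives. Pole2, a subunit of the leading-strand polymerase epsilon, fell by 1.25 ± 0.40 (edgeR adjusted p = 0.037), a call lost in 11 alternatives, among them the replicate block (adjusted p = 0.101). Pole4, a small subunit of polymerase epsilon, stood at 44.8 to 55.9 CPM against 51.1 to 81.9 CPM and did not pass (edgeR adjusted p = 0.0517), but did with the replicate block (0.0357). The catalytic gene Pole had 0 counts in the positive library of animal 2, again allowing up to 0.100 CPM. It stood at 3.57 to 6.81 CPM in the other 3 positive libraries and 8.53 to 12.7 CPM in the negative ones, and did not pass (edgeR adjusted p = 0.258).

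Pcna, the sliding clamp often used to mark dividing cells, was level: 88.9, 85.9, 84.2 and 90.4 CPM in the positive and 67.2, 86.6, 72.5 and 97.4 CPM in the negative libraries. The positive values lay inside the negative range, with a log2 fold change of 0.11 ± 0.14 (edgeR adjusted p = 0.548) that turned to -0.18 with library size scaling and -0.03 with upper quartile scaling. Of the clamp loader genes, Rfc3 and Rfc4 fell by 0.77 ± 0.19 and 0.89 ± 0.23 (edgeR adjusted p = 0.0131 and 0.0142). The Rfc3 call was lost without animal 3 (adjusted p = 0.0723), and the Rfc4 call without animal 2 (0.0602) or animal 3 (0.0582). Rfc1 and Rfc2 had log2 fold changes of 0.07 and -0.11.

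Nucleotide supply and cyclin E held the largest falls of the replication arm. Rrm2, the ribonucleotide reductase subunit made in S phase (chromosome 12, 24708254 to 24714146), stood at 14.3, 9.20, 19.1 and 20.4 CPM in the positive and 79.0, 90.3, 95.8 and 102 CPM in the negative libraries. The highest positive library was far below the lowest negative one. Rrm2 fell by 2.54 ± 0.25 on the log2 scale (SE; edgeR adjusted p = 1.96e-04). Its partner subunit Rrm1 was at 56.0 ± 12.7 CPM against 72.4 ± 15 CPM (edgeR adjusted p = 0.183), and passed with the replicate block (0.0450). Rrm2b, the subunit that can replace RRM2 outside S phase and is a known p53 target, was at 19.1 ± 3.94 CPM against 13 ± 3.37 CPM (adjusted p = 0.096). Tk1 and Tyms, which make thymidine nucleotides, fell by 1.68 ± 0.31 and 1.25 ± 0.26 (edgeR adjusted p = 0.00343 and 0.00644).

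Ccne1, the cyclin that brings cells into S phase (chromosome 7, 38097984 to 38107490), stood at 3.8, 2.74, 3.14 and 5.00 CPM in the positive and 13.8, 24.9, 19.2 and 30.1 CPM in the negative libraries. It did not overlap between groups and fell by 2.58 ± 0.31 on the log2 scale (SE; edgeR adjusted p = 5.12e-04). Ccne2, its sister cyclin, fell by 1.70 ± 0.36 (edgeR adjusted p = 0.0062), and its span overlaps that of Ints8.

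In the mitosis arm the largest falls were in the genes that release the chromatids. Cdc20, the activator of the anaphase-promoting complex (chromosome 4, 118432901 to 118437343), stood at 4.48, 2.88, 10.2 and 11 CPM in the positive and 53.8, 48.6, 48.5 and 84.6 CPM in the negative libraries. Each positive library was below all negative ones, and those of animals 1 and 2 were the lowest. Cdc20 fell by 3.04 ± 0.44 on the log2 scale (SE; edgeR adjusted p = 0.00122). Ube2c, the ubiquitin carrier of the same complex (chromosome 2, 164769929 to 164772902), stood at 3.99, 2.38, 10.4 and 12.3 CPM in the positive and 52.4, 36.7, 57.9 and 91.5 CPM in the negative libraries. Its positive libraries followed the same order as those of Cdc20, and its fall was the same to the second decimal, 3.04 ± 0.54 (edgeR adjusted p = 0.00298).

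**Figure D3:**
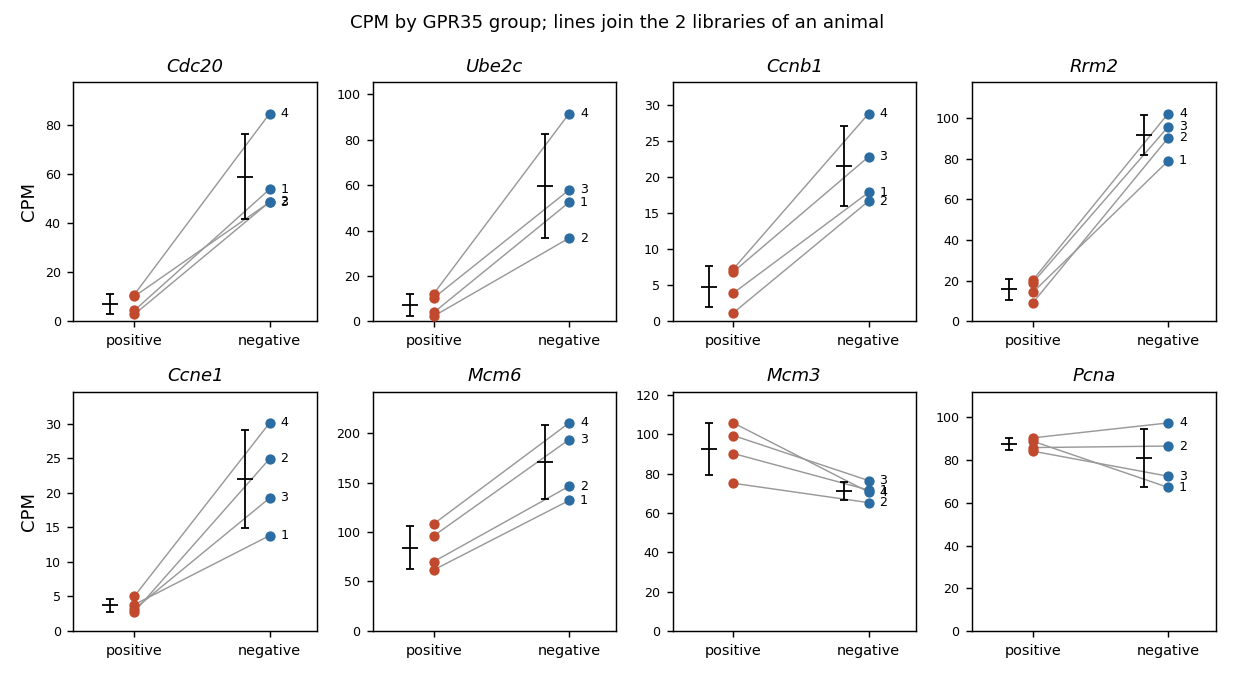
CPM (y axis from 0) in the positive and negative libraries for 8 genes, with a line joining the libraries of an animal (numbered 1 to 4) and black bars for the mean ± SD of a group. Cdc20, Ube2c and Rrm2 drop in every animal, while the positive Pcna values lie inside the negative range and Mcm3 is higher in each positive library.

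The 4 genes of cyclins A and B and CDK1 all fell, against 19.5% of all genes. Ccna2, the cyclin of S phase and G2, stood at 17.1, 16.1, 24.5 and 29.1 CPM in the positive and 61.2, 58.1, 68.2 and 86.5 CPM in the negative libraries, a fall of 1.66 ± 0.23 on the log2 scale (SE; edgeR adjusted p = 9.47e-04). Ccnb1 and Ccnb2, the cyclins that bring on mitosis, fell by 2.16 ± 0.50 and 1.71 ± 0.25 (edgeR adjusted p = 0.00984 and 0.00127). Cdk1, their kinase, stood at 7.70, 6.46, 16.9 and 15.2 CPM in the positive and 29.6, 29.6, 39.0 and 77.1 CPM in the negative libraries. None of these 4 overlapped between groups, while 20.6% of all genes were lower without overlap. Cdk1 fell by 1.92 ± 0.43 (edgeR adjusted p = 0.00805).

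Of 8 genes of the spindle checkpoint and mitotic kinases, 5 fell (62.5%, against 19.5% of all genes). Plk1, the kinase of mitotic entry (chromosome 7, 122159435 to 122169884), stood at 1.84, 1.07, 5.64 and 5.34 CPM in the positive and 14.3, 14.1, 16.6 and 33.1 CPM in the negative libraries, without overlap. It fell by 2.49 ± 0.57 on the log2 scale (SE; edgeR adjusted p = 0.00925). Birc5, which encodes survivin, and Aurka, a spindle pole kinase, fell by 2.12 ± 0.45 and 1.24 ± 0.25 (edgeR adjusted p = 0.00654 and 0.00482). Plk4, the kinase that starts centriole copying, fell by 0.93 ± 0.23 (edgeR adjusted p = 0.0118) but not without animal 1 (0.0653), 2 (0.0518) or 3 (0.0685). Bub1b fell by 0.96 ± 0.34 (edgeR adjusted p = 0.0494) and lost its call in 12 of 20 alternatives. Aurkb, the kinase that works with survivin, was at 12.7 ± 5.14 CPM against 23.2 ± 10.8 CPM and did not pass (edgeR adjusted p = 0.105), although it did with the replicate block (0.0362). Bub1, a checkpoint kinase, stood at 5.2, 0.569, 4.92 and 4.32 CPM against 4.65, 8.02, 9.67 and 10.5 CPM, lower in 3 of 4 animals, and did not pass (adjusted p = 0.170). Bub3, a checkpoint protein with roles outside mitosis, was level at 110 ± 7.59 CPM against 113 ± 21.9 CPM.

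Of the 21 genes grouped by their centromere protein symbols, 8 fell and 13 did not pass. The share that fell was 38.1%, against 19.5% of all genes, and the log2 fold changes ran from -2.77 to 0.47. Cenpm, a subunit of the inner kinetochore, stood at 0.560, 1.10, 2.77 and 2.51 CPM in the positive and 4.92, 12.7, 12.8 and 17.1 CPM in the negative libraries. It had the largest fall of the 21, 2.77 ± 0.59 on the log2 scale (SE; edgeR adjusted p = 0.00675). Cenpw, Cenpv and Cenpk fell by 2.03, 1.92 and 1.73, with edgeR adjusted p of 0.00312, 0.00187 and 0.00543. Cenph, Cenpn, Cenpf and Cenpq fell by 1.51, 1.23, 1.75 and 0.92, and each of these calls was lost without at least 1 animal. Cenpn shares 19789 bases, its whole annotated span, with Cmc2, so the Cenpn counts are uncertain. Cenpa, the histone variant that marks the centromere, was level at 22.6 ± 1.66 CPM against 22.7 ± 5.05 CPM (edgeR adjusted p = 0.98). Cenpx, Cenpb, Cenpo and Cenpt had log2 fold changes of 0.06 to 0.47 and did not pass, and Cenpo shares 18128 bases with Adcy3. Of the outer kinetochore NDC80 complex, which grips the spindle fibres, Nuf2, Spc24 and Spc25 fell by 1.51, 2.11 and 1.47 (edgeR adjusted p = 0.015, 0.0188 and 0.0128). The Nuf2 call was lost without animal 2 (adjusted p = 0.0707), that of Spc25 without animal 1 (0.0516) or 3 (0.0635), and that of Spc24 without animal 2 (0.0536), animal 4 (0.0658) or the positive library of animal 2 (0.0502). Ndc80 itself did not pass (edgeR adjusted p = 0.0698) but did with the replicate block (0.0476).

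Of 6 kinesins, motor proteins of the spindle, 4 fell (66.7%, against 19.5% of all genes). Kif22, which moves chromosome arms, stood at 7.11, 3.98, 10.1 and 9.85 CPM in the positive and 19.3, 19.7, 27.1 and 28.4 CPM in the negative libraries, without overlap. It fell by 1.61 ± 0.31 on the log2 scale (SE; edgeR adjusted p = 0.00439). Kif11, which pushes the spindle poles apart, and the cytokinesis motors Kif20a and Kif20b fell by 1.90, 0.94 and 0.92 (edgeR adjusted p = 0.0467, 0.0311 and 0.0362), and their calls were lost in 9, 9 and 10 of 20 alternatives. Kif20a shares 4930 bases with Cdc23, another gene of the anaphase-promoting complex.

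Mki67 and Top2a, common markers of dividing cells, gave weaker differences than the anaphase genes. Mki67, which coats mitotic chromosomes (chromosome 7, 135689784 to 135716450), stood at 41.3, 21.3, 30.4 and 27.4 CPM in the positive and 35.9, 39.6, 54.3 and 72.7 CPM in the negative libraries. The groups overlapped, because animal 1 had more in its positive than in its negative library. The log2 fold change of -0.75 ± 0.27 did not pass (edgeR adjusted p = 0.0577), although it did in 9 of 20 alternatives. Top2a, the enzyme that untangles chromatids, stood at 18.1, 6.42, 29.4 and 31.0 CPM against 57.6, 48.1, 49.7 and 54.5 CPM, without overlap. It fell by 1.30 ± 0.41 (edgeR adjusted p = 0.0343), a call lost in 9 of 20 alternatives with an adjusted p of up to 0.131.

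Of the 45 members that changed, 22 passed the threshold in all 20 alternatives, and none of the 45 changed sign in any of them. The 22 were 14 mitosis genes (Aurka, Birc5, Ccna2, Ccnb1, Ccnb2, Cdc20, Cdk1, Cenpk, Cenpm, Cenpv, Cenpw, Kif22, Plk1 and Ube2c) and 8 replication genes (Ccne1, Ccne2, Cdc45, Mcm6, Pold2, Rrm2, Tk1 and Tyms). The alternatives reused most or all of the same 8 libraries. The matching shares over all genes that changed are not given here, so these counts have no background. Among the mitosis genes that fell and had a promoter, 15 of 24 (62.5%) held CHR letters and 14 (58.3%) held CHR with CCAAT. Among the 19 that did not fall, 7 (36.8%) held CHR and 5 (26.3%) both. Bub3 and Cenpa, level between the groups, were among those with both letters, as were Mki67, Cenpl and Kif23.

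Levels were compared between members per kilobase of the deposited gene length. Pcna stood at 69.3 CPM per kb in the positive and 64.2 in the negative libraries, Cenpx at 62.7 and 60.0, Pold4 at 52.2 and 27.2, and Bub3 at 52.1 and 53.4, the 4 highest members in the positive libraries. In the positive libraries Ube2c stood at 7.79 CPM per kb, Rrm2 at 7.23, Cdc20 at 3.99, Mki67 at 2.99 and Plk1 at 1.57. In the negative libraries Ube2c reached 64.0 CPM per kb, level with Pcna, and Rrm2 42.1, Cdc20 33.0, Plk1 8.83 and Mki67 5.02. Mitotic transcripts were thus present, at low level, in every positive library.

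The summed level of the mitosis arm was 519, 469, 645 and 681 CPM in the positive libraries of animals 1 to 4 and 1013, 994, 1098 and 1463 CPM in the negative ones. The groups did not overlap, with means of 579 ± 101 and 1142 ± 219 CPM (SD, n = 4). The replication arm summed to 1266, 1183, 1390 and 1503 CPM in the positive and 1456, 1817, 1800 and 1982 CPM in the negative libraries, with means of 1336 ± 140 and 1764 ± 221 CPM. These groups overlapped, since the positive library of animal 4 lay above the negative library of animal 1. The ratio of the mitosis to the replication sum was 0.397 to 0.464 in the positive and 0.547 to 0.738 in the negative libraries.

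The libraries of a group also differed from each other in a shared way. Of the positive libraries, that of animal 2 was the lowest for 28 of 47 mitosis and 25 of 47 replication genes, and that of animal 4 the highest for 27 and 24. Of the negative libraries, that of animal 4 was the highest for 33 mitosis and 24 replication genes, and that of animal 1 the lowest for 31 replication genes.

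**Figure D4:**
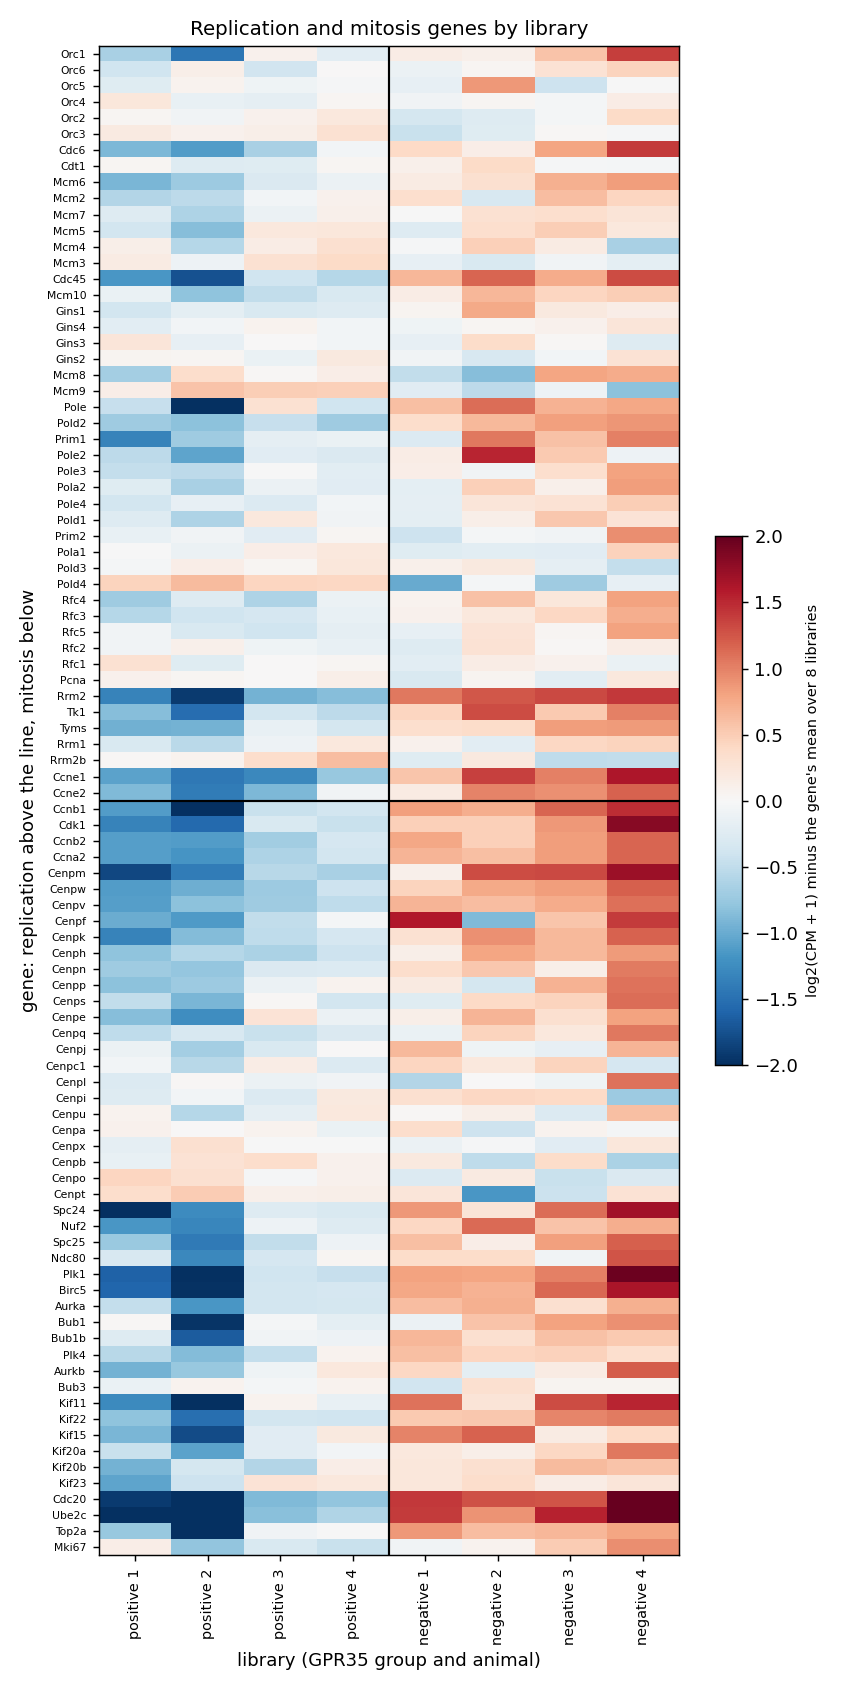
Level of each member in the 8 libraries, shown as log2(CPM + 1) less the gene's mean over the libraries (colour), with the 47 replication genes above the 47 mitosis genes. The positive library of animal 2 is the lowest of its group for 28 mitosis genes and the negative library of animal 4 the highest of its group for 33.

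Markers of B and plasma, T and innate lymphoid, and stromal cells moved with these genes between the groups. Of 13 B and plasma cell markers 13 were lower in the positive libraries, against 19.5% of all genes. Among them was Jchain, the joining chain of secreted antibodies, at 665 to 2072 CPM against 67767 to 134320 CPM. Csf1r, the macrophage growth factor receptor, was at 3916 to 4637 CPM against 412 to 2545 CPM, and Fcgr1, which encodes CD64, at 164 to 214 CPM against 19.98 to 98.4 CPM. Of 11 T and innate lymphoid markers 9 (81.8%) were lower, with sums of 66.9 to 83.4 CPM against 365 to 641 CPM. Of 12 stromal and endothelial markers 9 (75%) were lower, with sums of 967 to 1839 CPM against 3691 to 8108 CPM. Of 10 epithelial markers 2 were lower, a share near that of all genes, with sums of 69.1 to 133 CPM against 165 to 473 CPM, and Fabp2 was at 0 in at least 1 library. No marker of these lists was at 0 in every positive library.

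Among the positive libraries, that of animal 2 had the lowest mitosis sum and the highest macrophage sum (50153 CPM). It also had the lowest sums of B and plasma cell (1246 CPM), T and innate lymphoid (66.9 CPM) and stromal markers (967 CPM). The epithelial sum was instead lowest in the positive library of animal 1 (69.1 CPM, against 99.3 CPM in that of animal 2). Among the negative libraries, that of animal 2 had the highest B and plasma cell sum (144459 CPM) with the lowest mitosis sum (994 CPM). The negative library of animal 1, lowest for most replication genes, had the highest macrophage sum (21339 CPM). Which cells carried the replication and mitosis transcripts, and the part of these other cells in the differences, was not tested.

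**Figure D5:**
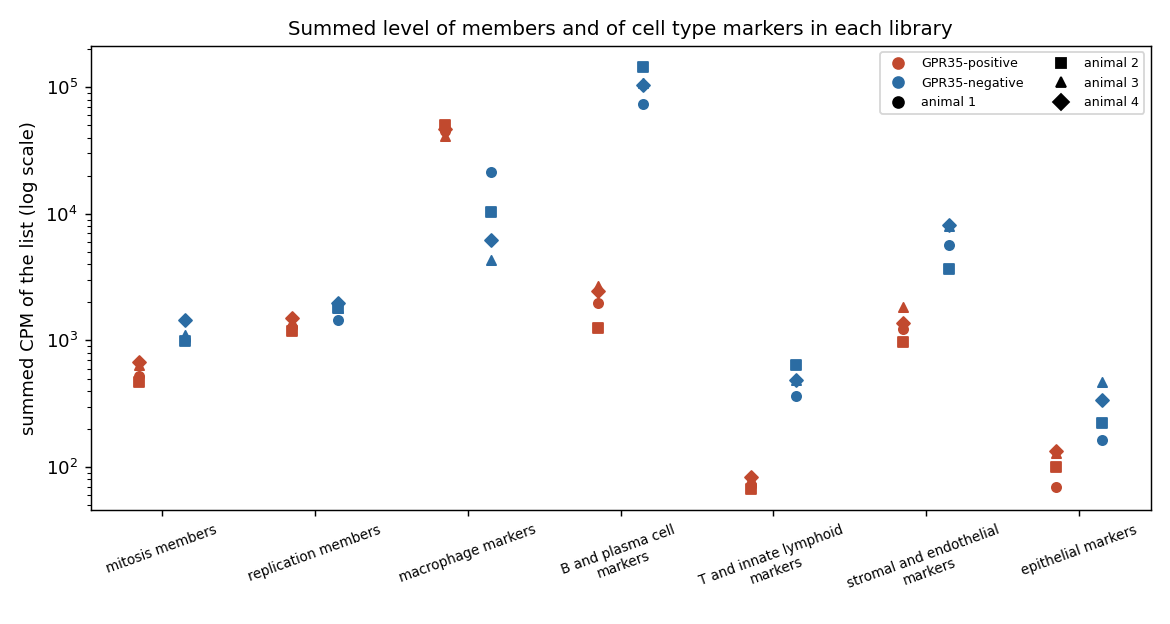
Summed CPM (log axis) of the mitosis and replication genes and of the cell type marker lists in each of the 8 libraries, coloured by group with a symbol for each animal. B and plasma cell markers lie at 73868 to 144459 CPM in the negative against 1246 to 2704 CPM in the positive libraries, and the mitosis genes at 994 to 1463 CPM against 469 to 681 CPM.

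Other genes of the same pathways, taken from lists and not from the symbol rule, also fell more often than they rose. Of 32 further replication genes 12 fell and 1 rose, with a median of -0.73. These shares were 37.5% and 3.1%, against 19.5% and 18.4% of all genes. Fen1, which trims Okazaki fragments, fell by 0.93 ± 0.17 and Rpa2, a subunit of the single-strand binding protein, by 1.27 ± 0.23 (edgeR adjusted p = 0.00303 and 0.00309). The gene that rose was Dna2, a nuclease and helicase of fragment and break processing, at 27.7, 35.3, 26.2 and 26 CPM against 6.05, 9.09, 3.20 and 3.72 CPM. No negative library approached the positive ones, for a log2 fold change of 2.39 ± 0.34 (edgeR adjusted p = 0.0011).

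Of 44 further mitosis genes, all of them tested, 17 fell and 1 rose, with a median of -1.22. These shares were 38.6% and 2.27%, against 19.5% and 18.4% of all genes. Cks1b, a CDK-binding subunit, Cdc25b, a phosphatase that switches CDK1 on, and Ncapg, a condensin subunit, fell by 2.20, 2.22 and 2.05 (edgeR adjusted p = 5.73e-04, 9.69e-04 and 0.00111). The gene that rose was Espl1, which encodes separase, the protease set free by anaphase onset. It was named after its values were seen, at 32.9, 19.8, 27.6 and 28.4 CPM against 14, 9.93, 12.8 and 15.1 CPM. The groups did not overlap, for a log2 fold change of 1.07 ± 0.21 (edgeR adjusted p = 0.00451). Dna2 and Espl1 passed in all 20 alternatives.

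Of 29 regulators of entry into S phase, 6 fell and 1 rose, with a median of -0.13. Their share that fell, 20.7%, was near the 19.5% of all genes. Ccnd2, a cyclin of G1, stood at 76.8, 72.2, 103 and 108 CPM in the positive and 190, 234.3, 231 and 278 CPM in the negative libraries, without overlap. It fell by 1.37 ± 0.18 on the log2 scale (SE; edgeR adjusted p = 7.73e-04). Mybl2, the partner of the MuvB complex in dividing cells, fell by 2.04 ± 0.44 (edgeR adjusted p = 0.00686). The gene that rose was Lin9, a core MuvB subunit, with 1.17 ± 0.18 (edgeR adjusted p = 0.00157). The other MuvB subunits of the list did not rise with it. Lin52 fell by 0.67 ± 0.20 (edgeR adjusted p = 0.0301), without overlap between the groups. Lin37 and Lin54 had log2 fold changes of -0.20 and 0.10 and did not pass. Lin52, Lin37 and Lin54 were named after their values were seen. Ccnd1 stood at 19.4, 24.1, 56.7 and 57.7 CPM against 26.9, 19.8, 20.7 and 23.4 CPM. Its positive libraries fell apart by animal, high in animals 3 and 4 alone, and the difference did not pass (edgeR adjusted p = 0.108). Ccnd3, a further G1 cyclin, was at 61.9 ± 13.2 CPM against 92.3 ± 16.9 CPM (edgeR adjusted p = 0.0503), and the Ccnd3 log2 fold change passed with the replicate block (adjusted p = 0.00760). Foxm1, a factor that turns on G2 and mitosis genes and was named after its values were seen, was at 2.28 to 5.42 CPM against 1.19 to 15.8 CPM and did not pass (edgeR adjusted p = 0.124).

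Of 16 inhibitors of the cycle and antiproliferative genes 15 were tested, with 5 higher and 5 lower and a median of -0.13. Each share was 33.3%, against 18.4% of all genes higher and 19.5% lower. Btg1 and Btg2, antiproliferative cofactors abundant in resting cells, rose by 1.39 ± 0.19 and 1.46 ± 0.20 on the log2 scale (SE; edgeR adjusted p = 8.93e-04 and 9.87e-04). Cdkn1a, the CDK inhibitor p21, stood at 325, 272, 217 and 211 CPM in the positive and 167, 104, 76.7 and 82.8 CPM in the negative libraries, and rose by 1.25 ± 0.27 (edgeR adjusted p = 0.00693). Gadd45b and Gadd45g rose by 0.82 and 0.70, both named after their values were seen. The 5 lower genes, also named then, were Cdkn2b, Cdkn2c, Cdkn1c, Tob1 and Ccng1, of which the Cdkn2b log2 fold change lost its call with the replicate block (adjusted p = 0.0605). Cdkn1b, the inhibitor p27, had a log2 fold change of -0.13 (edgeR adjusted p = 0.795).

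Of the 2 genes matched by symbol alone, Aurkaip1, a mitochondrial ribosome gene, fell by 0.52 ± 0.16 (edgeR adjusted p = 0.0281), a call lost in 8 of 20 alternatives. Mcm3ap, a gene of messenger RNA export, had a log2 fold change of 0.43 ± 0.20 and did not pass (edgeR adjusted p = 0.119).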

How the data were processed

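RNA of GPR35-positive and GPR35-negative cells of 4 mice, sorted as macrophages, was compared in 8 libraries. The authors deposited raw counts per gene, whole numbers whose totals differ between libraries, and with them gene lengths in bases, used here only for CPM per kb. The submitters' processing notes name mm10, STAR 2.5.2a and R 3.4.2. How reads were assigned to genes, and with which annotation, is not given in the sources used here. Of the 14980 listed genes, 9 carried an identifier but no symbol (up to 0.0200% of counts).

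Counts were tested with edgeR 4.0.16 (R 4.3.3) by a robust quasi-likelihood F-test without a block, after filterByExpr (minimum count 10, minimum total 15) and TMM scaling, with Benjamini-Hochberg adjustment over 14193 genes and a threshold of 0.05. Fold changes are on the log2 scale from the edgeR fit with its default prior count. Each SE is the size of the change divided by the root of F. The within-animal log2 differences and the correlations of deviations used log2 CPM with a prior count of 2. CPM use TMM library sizes. DESeq2 1.42.0, limma 3.58.1 (voom with quality weights), other scalings and filters, and leaving out each library or animal were alternatives. The test was checked on simulated data. Python 3.11.15 was used for the summaries, the promoter search and the plots.

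Each animal number in the labels belongs to 1 positive and 1 negative library, which pairs the libraries by animal. Deviations from the group means correlated across genes at 0.205, 0.206, 0.432 and 0.0637 within the pairs of animals 1 to 4, against at most 0.104 to 0.237 with a library of another animal. The replicate block was an alternative. No replicates agreed within sampling noise (smallest chi-square per degree of freedom 26.6). Without molecular identifiers PCR copies are counted as reads, so the limit for a count of 0, set at 3 counts, covers counting error only. Of the 96 members, 25 share part of their span with another tested gene, and without strand such reads cannot be told apart.

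The members and gene lists were chosen with earlier results of these data known. By rule the text gives a set of well-known members, the 2 with the smallest p in each role, the 3 with the smallest p in each further list, and a few cyclins, CDK inhibitors and marker genes, and it may name any member. Genes outside that rule are marked as named after their values were seen. Promoters were matched by gene ID, and a gene with several windows held a motif if any of them did.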

Additional observations from a re-analysis of the deposited data

Results flagged for a closer look

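In groups of 4 libraries, 6 of 208 examined sets of values had a library that stood apart from the other 3 by most of the group's range (Dixon's 95% criterion); chance flags about 1 in 20. In the negative library of animal 4, Cdc20 was at 84.6 CPM (48.5 to 53.8 in the others), Plk1 at 33.1 CPM (14.1 to 16.6) and Ncapg at 22.3 CPM (33.9 to 35.9), so that 2 mitotic genes stood high there and 1 low. Foxm1 was at 1.19 CPM in the negative library of animal 2, against 13.4 to 15.8 CPM in the others. In the positive libraries, Pold4 was at 55.8 CPM in animal 2 (48.2 to 49.2 in the others) and Cdkn2b at 0.420 CPM in animal 1 (1.41 to 1.57).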

How the results depend on the processing

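The mitosis median stayed between -1.50 and -0.92 over the 20 alternatives. Library size scaling moved the median of all genes by -0.29. It gave 1690 genes higher and 4193 lower (28.7% of calls higher, against 48.5%), 26 replication genes lower and 1 higher, and a replication median of -0.66. Upper quartile scaling gave 2155 higher and 3348 lower (39.2% higher). Leaving out libraries or animals gave 1569 to 2931 genes higher and 1681 to 3040 lower. The fewest higher genes came without animal 3, and without animal 4 there were 1625 higher and 1681 lower. Among members, it gave 17 to 25 mitosis genes lower and 0 to 1 higher (1, Cenpo, without the negative library of animal 2), and 8 to 17 replication genes lower and 0 to 3 higher. Without animal 4, or its positive library alone, 1 replication gene was higher. The animal numbers pair the libraries, and the replicate block gave 29 mitosis genes lower, 15 replication genes lower and 3 higher. The member calls it changed are given with those genes, and it changed no other member call.

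Of the 96 members, 19 changed sign in at least 1 alternative, none of them past the threshold at first; Gins3 did so in 10, and Cenpa, Orc4 and Mcm4 in 7 each. Mcm4 was 0.0039 with no filter, 0.0853 by voom and 0.0166 with the replicate block, and 0.39, 0.16, 0.22 and 0.04 in 4 of the leave-outs. In the leave-outs Mcm8 ran from -0.701 to 0.0464 and the Cdkn1b log2 fold change from -0.314 to 0.113. Pcna was -0.179 and -0.0302 with library size and upper quartile scaling. The causes were not tested. The smallest library, with 16 M counts, limits genes of about 1 CPM.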
